A study of Rattus norvegicus with 6 samples.

Results

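The genes described here encode the extracellular and cell surface part of Wnt signalling: Wnt ligands, Frizzled (Fzd) receptors, the co-receptors Lrp5, Lrp6, Ror1 and Ror2, secreted antagonists (Sfrp proteins, Frzb and Wif1), Dickkopf (Dkk) proteins, the agonist Rspo3, and the transcriptional targets Axin2 and Lef1. They were taken by gene symbol alone, and 35 of the 16770 genes in the table of estimated counts met the rule. Of these, 34 had a count in at least 1 library, and 25 passed the filter on low counts and were tested by edgeR. The RNA came from cultures grown from the proximal aorta of 3-month-old rats of 2 inbred strains, with 3 libraries of the spontaneously hypertensive rat (SHR) and 3 of the normotensive Wistar Kyoto rat (WKY). No treatment is labelled, and all cultures shared an endothelial medium with serum and growth supplement. By the labels, batch 1 holds replicates 1 and 2 and batch 2 holds replicate 3, in either strain, and what a batch shared is not said. The labels do not tie a library to its own animal or culture, so the p-values rest on spread among these libraries, which may be technical. Total estimated counts lay between 18462032 and 19947286 per library. Levels are counts scaled to library size (CPM), which depend on transcript length, so they are compared between libraries and not between genes.

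Wnt ligands are lipid-modified secreted proteins that bind Frizzled receptors. Together with Lrp5 or Lrp6 the bound receptor stabilises beta-catenin, which acts with factors of the TCF and LEF family on genes such as Axin2, itself a brake on the pathway. Other ligands, of which Wnt5a is the best known, act through Ror1 or Ror2 on cell polarity and the cytoskeleton. Sfrp proteins and Wif1 bind the ligands outside the cell, and Dkk proteins of the classical kind bind Lrp5 and Lrp6. In blood vessels the pathway is known for roles in retinal angiogenesis, the barrier of brain endothelium and smooth muscle growth.

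The labels call the cells endothelial. Of 18 endothelial markers 15 were found and 6 passed the filter on low counts. In all 6 libraries 11 of the 15 stayed under 5 CPM, among them the junction gene Cdh5 (0 to 0.10 CPM), Pecam1 (0.11 to 2.18 CPM), Kdr (0 to 0.94 CPM) and Vwf (0.10 to 0.94 CPM). The other 4 were higher: Eng had 119 to 635 CPM, Flt1 7.03 to 79.3 CPM, Egfl7 6.39 to 27.2 CPM and Tek 0.44 to 9.38 CPM. Tek had 4.72, 9.38 and 8.32 CPM in SHR and 0.66, 1.85 and 0.44 CPM in WKY and was called higher in SHR by DESeq2 (adjusted p = 0.000375) and not by edgeR. The summed level of the list was 225 to 329 CPM in SHR and 221 to 660 CPM in WKY. The summed level of the fibroblast list (12 of 12 markers tested) was 12900 to 15300 CPM in SHR and 5760 to 15900 CPM in WKY. The smooth muscle list (10 markers found, 9 tested) summed to 2220 and 8580 CPM in SHR and WKY of batch 2, against 784 to 957 CPM in the 4 libraries of batch 1. The first principal component of log2(CPM + 0.5), with 58.3% of the variance, separated the batches, and the second, with 22.6%, the strains. The libraries are named by strain and batch below. In such bulk RNA, fewer cells of a type and less RNA per cell cannot be told apart.

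The promoters of 3 members are shown because the results turn on them. Axin2 is the readout gene of the beta-catenin branch, and Wnt2b and Sfrp2 had the largest strain fold changes by edgeR. By DESeq2 Frzb (4.97 on the log2 scale, not called) came between them. Each line gives the 250 bases before the annotated start, from RefSeq (build GRCr8, a reference strain other than SHR and WKY), read in the direction of the gene. Capitals mark CTTTGAA or CTTTGTT, core letters of sites bound by TCF and LEF factors, searched on both strands. Other forms of such sites were not searched and are not marked, so the shares below cover these letters alone.
Axin2 (chr10:94398535-94398784, plus strand): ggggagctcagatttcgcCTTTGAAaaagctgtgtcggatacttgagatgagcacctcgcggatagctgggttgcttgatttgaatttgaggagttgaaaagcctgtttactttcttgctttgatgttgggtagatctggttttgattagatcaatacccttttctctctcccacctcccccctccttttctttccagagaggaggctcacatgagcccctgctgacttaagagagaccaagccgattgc
Sfrp2 (chr2:171387286-171387535, plus strand): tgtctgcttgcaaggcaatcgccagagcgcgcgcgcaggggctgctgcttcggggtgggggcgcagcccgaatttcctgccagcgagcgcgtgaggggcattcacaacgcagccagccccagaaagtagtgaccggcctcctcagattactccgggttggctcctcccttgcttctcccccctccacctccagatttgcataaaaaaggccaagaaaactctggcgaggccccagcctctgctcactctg
Wnt2b (chr2:195156946-195157195, minus strand): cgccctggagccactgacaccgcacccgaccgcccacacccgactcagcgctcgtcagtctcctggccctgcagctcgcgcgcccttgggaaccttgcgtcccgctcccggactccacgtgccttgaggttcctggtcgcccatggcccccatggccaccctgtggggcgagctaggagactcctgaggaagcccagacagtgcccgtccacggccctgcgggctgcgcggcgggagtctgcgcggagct
Promoters were found by gene identifier for 24 of the 35 members. Axin2 was the 1 of these 24 that held either motif, a share of 4.17%, against 9.48% of all 33469 promoters of the table. The letters were not found in the windows of Sfrp2 and Wnt2b. A match describes the sequence and not a bound site.

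The strains were compared first. By the edgeR quasi-likelihood test with batch and strain as terms, 0 of the 25 tested members were called at an adjusted p below 0.05, where 0.254% of all genes tested were called, 0.103% higher and 0.151% lower. With unadjusted p under 0.05 there were 7 members, or 28% against 13.3% of all genes. Of these, 5 were higher in SHR (20%, against 6.1% of all genes) and 2 lower (8%, against 7.18%). The DESeq2 Wald test with the same terms called Wnt2b, Sfrp2, Fzd4 and Fzd6, which are 4 of the 30 members it tested, or 13.3% against 5.33% of the 13686 genes it tested. All 4 were higher in SHR, where 2.77% of genes were called higher and 2.56% lower. SHR and WKY libraries were fully separate in 4 members, or 16% against 9.81% of genes. Wnt2b and Sfrp2 were higher in SHR (8%, against 4.51% of genes), and Fzd1 and Fzd3 lower (8%, against 5.3%). These shares hold Wnt2b, which passed the filter through SHR libraries alone and so had to be separate. Without it, 6 of 24 members had an unadjusted p under 0.05 (25%, with 4 higher), 3 of 24 were separate (12.5%, with Sfrp2 the 1 higher) and DESeq2 called 3 of 29 (10.3%). The shares of all genes still hold genes that passed through 1 strain alone, so these reduced shares have no like share beside them. The median log2 fold change of SHR over WKY was 0.20 over the 25 members and -0.02 over all 12614 genes tested. With 3 libraries against 3, an exact two-sided permutation test of a single gene cannot go below p = 0.1.

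**Figure D1:**
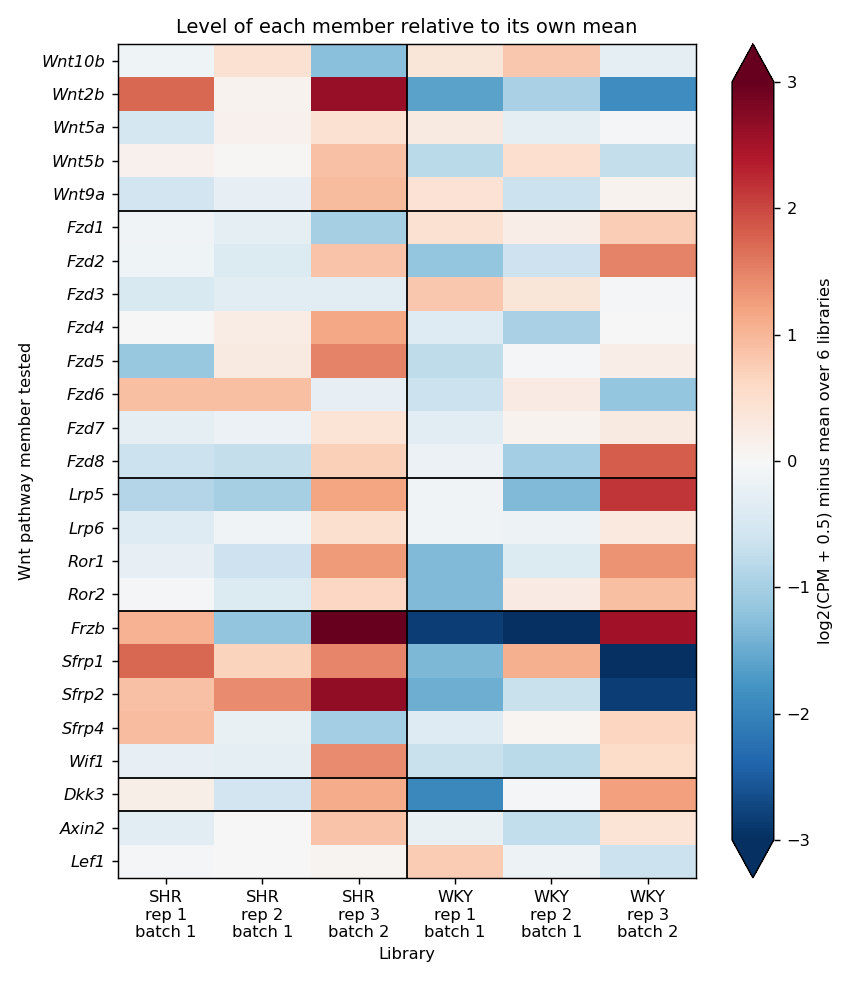
Level of the 25 tested members in each library, as log2(CPM + 0.5) minus the mean of that member over the 6 libraries. Rows run by role (ligands, Frizzled receptors, Lrp and Ror, secreted antagonists, Dkk3, targets) and columns give SHR and then WKY with the batch. Wnt2b and Sfrp2 are red in the 3 SHR columns or near their mean and blue in the 3 WKY columns, while Lrp5, Fzd8 and Ror1 are red in both replicates 3, the batch 2 libraries.

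Among the ligands, Wnt2b, which acts through beta-catenin and is known from lung and eye development, was at or near 0 in the WKY libraries. It had 5.56, 1.48 and 10.6 CPM in SHR replicates 1, 2 and 3, against 0.10, 0.42 and 0 CPM in WKY. These levels rest on 106, 29 and 204 counts in SHR and on 2, 8 and 0 counts in WKY. Every SHR library lay above every WKY library, and Wnt2b was the 1 tested member that passed the filter through SHR libraries alone, so a difference was built into its being tested. The edgeR log2 fold change was 4.77 (SE 1.24, unadjusted p = 0.0106, adjusted p = 0.249). DESeq2 gave 4.99 (SE 1.17, adjusted p = 0.00112), and over the 12 alternatives of the edgeR comparison, DESeq2 among them, the adjusted p lay between 0.00112 and 0.774. Within batch 1 the ratio of summed counts was 13.5, with a 95% counting interval of 7.13 to 28.8. In batch 2 SHR was at least 56.8-fold higher, set against 3 counts in the WKY library. DESeq2 did not call it without SHR replicate 3 (log2 fold change 3.76, adjusted p = 0.0746). It did call Wnt2b without WKY replicate 3, at nearly the same log2 fold change (3.77, adjusted p = 0.0117). In either refit the batch term takes up the library left in batch 2, so the strain difference comes from batch 1 alone.

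Wnt5a, the ligand of the Ror receptors, had 23.3, 36.9 and 46.7 CPM in SHR and 40.7, 27.8 and 33.0 CPM in WKY. The strains overlapped, with a log2 fold change of 0.04 (SE 0.27). Wnt10b, known for promoting bone formation and holding back fat cell formation, had 2.41, 3.87 and 0.83 CPM in SHR and 3.53, 5.08 and 2.11 CPM in WKY (log2 fold change -0.72, SE 0.38, unadjusted p = 0.112). Its SHR library was the lower of the pair in batch 2, and in batch 1 the strains overlapped. The remaining tested ligands, Wnt5b and Wnt9a, lay between 0.53 and 3.22 CPM with strain fold changes of 0.75 (SE 0.68) and -0.03 (SE 0.61) on the log2 scale.

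A further 6 ligands did not pass the filter of the edgeR test. Wnt2 had 0, 0 and 34 counts in SHR and 2, 7 and 0 counts in WKY. Wnt11 had 4, 2 and 21 counts in SHR and 0, 1 and 1 in WKY. For both ligands the largest count stood in SHR replicate 3. Wnt4 had 0 to 7 counts in SHR and 4 to 13 in WKY, and Wnt6, Wnt10a and Wnt16 had at most 3 counts in any library. In a single library a count of 0 allows up to 3 counts, or 0.15 to 0.19 CPM, for counting error alone.

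Of the Frizzled receptors, 8 of 10 were tested. Fzd4, the receptor of Norrin and of several Wnts that is required for the retinal vasculature, had 37.9, 44.7 and 85.6 CPM in SHR and 29.1, 19.1 and 38.1 CPM in WKY. In each batch the SHR libraries lay above those of WKY, although SHR replicate 1 was just below WKY replicate 3 of the other batch. The log2 fold change was 0.91 (SE 0.21, unadjusted p = 0.00508, adjusted p = 0.206 by edgeR). DESeq2 called it (0.93, SE 0.25, adjusted p = 0.00768), with adjusted p between 0.00768 and 1.0 over the alternatives of the edgeR comparison. Left out in turn, SHR replicate 2 (adjusted p = 0.121), SHR replicate 3 (0.253), WKY replicate 2 (0.0762) and WKY replicate 3 (0.216) each ended the DESeq2 call.

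Fzd6, a receptor of the planar polarity branch that patterns hair follicles, had 35.9, 35.9 and 16.0 CPM in SHR and 12.1, 22.7 and 8.27 CPM in WKY. SHR was the higher strain in both batches, by ratios of 2.07 and 1.94, and both batch 2 libraries were the lowest of their strain. The edgeR log2 fold change was 1.02 (SE 0.25, adjusted p = 0.23). DESeq2 gave 1.03 (SE 0.31, adjusted p = 0.023), with adjusted p between 0.023 and 1.0 over the alternatives of the edgeR comparison. That DESeq2 call ended when any SHR library or WKY replicate 1 or 3 was left out (adjusted p from 0.0671 to 0.259).

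Fzd1, a receptor of both Wnt branches, was lower in SHR. It had 80.3, 71.1 and 43.4 CPM in SHR and 119, 99.7 and 144 CPM in WKY, with no overlap and the widest gap in batch 2. Its log2 fold change was -0.93 (SE 0.28, unadjusted p = 0.017, adjusted p = 0.279 by edgeR, 0.0602 by DESeq2). Over the 12 alternatives it lay between -1.13 and -0.53, and DESeq2 called it without WKY replicate 2 (adjusted p = 0.0268). Fzd3, a receptor of axon guidance, stood at 0.73, 0.87 and 0.83 CPM in SHR and 2.47, 1.69 and 1.12 CPM in WKY, a log2 fold change of -1.07 (SE 0.42 and adjusted p = 0.37) from 14 to 49 counts per library. Fzd8 had 3.04, 2.86 and 8.52 CPM in SHR and 4.39, 2.22 and 19.0 CPM in WKY. Fzd2, Fzd5, Fzd7 and Fzd8 overlapped between the strains, with log2 fold changes between -0.51 and 0.55. Fzd9 had 3, 1 and 62 counts in SHR and 7, 2 and 6 in WKY, and Fzd10 had 0 counts in all 6 libraries.

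**Figure D2:**
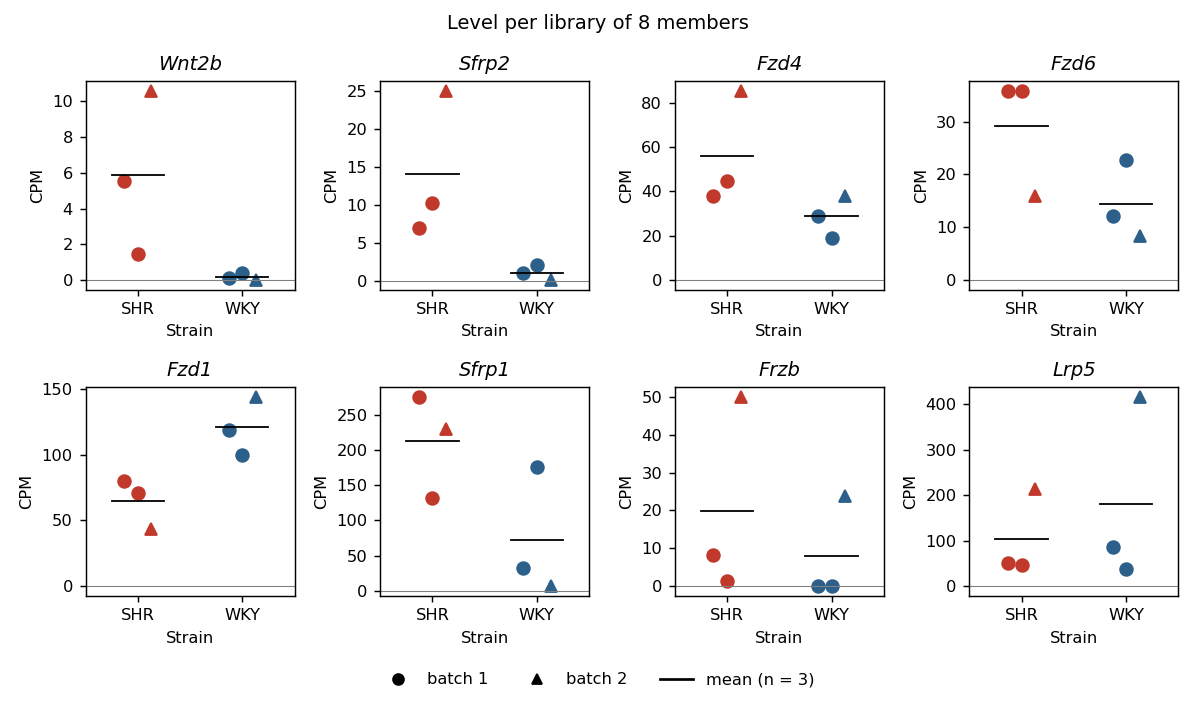
CPM of Wnt2b, Sfrp2, Fzd4, Fzd6, Fzd1, Sfrp1, Frzb and Lrp5 in each library, with SHR left of WKY in each panel and linear axes that differ between panels. Circles are batch 1, triangles are batch 2 and the line is the mean of 3 libraries. The SHR and WKY points are separate for Wnt2b, Sfrp2 and Fzd1, and the triangles lie far above the circles of both strains for Lrp5 and Frzb.

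Of the co-receptors, Lrp6, required with Frizzled for the beta-catenin branch, had 78.8 ± 25.3 CPM in SHR and 78.3 ± 14.4 CPM in WKY (SD, n = 3 each), a log2 fold change of -0.02 (SE 0.14). Its close relative Lrp5 had 50.7, 47.1 and 215 CPM in SHR and 87.3, 37.2 and 417 CPM in WKY. The edgeR log2 fold change was -0.55 (SE 0.34, adjusted p = 0.547). DESeq2 called Lrp5 lower in SHR without WKY replicate 2 (-0.87, adjusted p = 0.000266) and in no other such refit. The strains overlapped in batch 1, and the batch 2 libraries were the highest of each strain. The Wnt5a receptor Ror2 had 79.9, 61.8 and 127 CPM in SHR and 32.5, 97.6 and 155 CPM in WKY, with overlap and a fold change of -0.01 (SE 0.42) on the log2 scale. Ror1 had 6.14, 4.59 and 18.7 CPM in SHR and 2.63, 5.39 and 19.5 CPM in WKY, and its log2 fold change was 0.25 (SE 0.32). The sign for Ror2 turned with the scaling of the libraries, as given in the closing section.

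Among the secreted antagonists, Sfrp2, which carries a Frizzled-like domain and is a product of matrix-forming fibroblasts, had 6.93, 10.2 and 25.003 CPM in SHR and 0.96, 2.01 and 0.06 CPM in WKY. No SHR library overlapped a WKY library. The edgeR log2 fold change was 3.70 (SE 1.13, unadjusted p = 0.0209, adjusted p = 0.294), and DESeq2 gave 3.89 (SE 0.99, adjusted p = 0.0036). Over the alternatives of the edgeR comparison the adjusted p lay between 0.0036 and 0.922. In DESeq2 it was called in all 6 refits that left out 1 library and with the replicate block, with log2 fold changes between 2.54 and 5.07 and adjusted p between 0.00016 and 0.0143. The refits without SHR replicate 3 (2.54) and without WKY replicate 3 (2.55) both rest on batch 1, so they are not separate checks. The ratio was 5.83 in batch 1 (95% counting interval 4.39 to 7.87). In batch 2 it was 402, from 481 counts against 1 count, with an interval of 71.8 to 15914.

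Sfrp1, a related antagonist, had 276, 132 and 230 CPM in SHR and 32.5, 176 and 6.59 CPM in WKY. WKY replicate 2 lay above SHR replicate 2, so the strains overlapped. The log2 fold change was 2.12 (SE 1.205, unadjusted p = 0.136, adjusted p = 0.517 by edgeR). With 1 library left out it lay between 0.97 (without SHR replicate 3 or WKY replicate 3) and 3.59 (without WKY replicate 2), and no edgeR refit called it. DESeq2 called it without WKY replicate 2 (3.63, adjusted p = 3.09e-07) and in no other such refit. Frzb, also named Sfrp3 and known from cartilage, had 8.35, 1.38 and 50.1 CPM in SHR and 0.10, 0 and 23.9 CPM in WKY. In batch 1 it was at 2 counts in both WKY libraries together against 186 in SHR, a ratio of 93.1 with a 95% counting interval of 25.4 to 775, and in batch 2 the ratio was 2.10. The fitted log2 fold change was 3.35 (SE 1.36, unadjusted p = 0.0553, adjusted p = 0.389), and DESeq2 called Frzb without SHR replicate 3 (adjusted p = 0.000164) or WKY replicate 3 (0.0192).

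Wif1, which binds Wnts through a domain of its own, had 0.79, 0.76 and 3.59 CPM in SHR and 0.45, 0.37 and 1.74 CPM in WKY (log2 fold change 0.95, SE 0.36, unadjusted p = 0.0389, adjusted p = 0.359). The SHR library was higher in both batches at 7 to 69 counts per library. Sfrp4 had 44.9, 20.1 and 11.3 CPM in SHR and 17.9, 24.6 and 37.2 CPM in WKY, with a log2 fold change of -0.13 (SE 0.61). Its strains overlapped in batch 1, and in batch 2 the SHR library was the lower. Of the Dickkopf genes, Dkk3, a divergent member whose place in Wnt signalling is unsettled, had 322, 191 and 616 CPM in SHR and 74.2, 275 and 662 CPM in WKY (log2 fold change 0.34, SE 0.53). Dkk2, a ligand of Lrp5 and Lrp6, had 0, 0 and 99 counts in SHR and 0, 0 and 1 in WKY and did not pass the edgeR filter. Rspo3, which augments Wnt signals through Lgr receptors, had 0, 0 and 2 counts in SHR and 8, 1 and 0 in WKY.

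Markers of other cells were set beside these antagonists. In the fibroblast list 1 of 12 markers, Tcf21, was called higher in SHR by edgeR, where 0.103% of all genes were. DESeq2 called Tcf21, Lum, Dpt, Dcn, Postn and Pdgfra higher, where 2.77% of all genes were. Dcn and Dpt of this list, chosen after their values were seen, had the same order of strains as Sfrp2. Dcn had 386, 245 and 1307 CPM in SHR and 61.5, 26.9 and 8.39 CPM in WKY. Dpt had 25.8, 15.5 and 42.6 CPM in SHR and 0.10, 0.74 and 0.06 CPM in WKY. Col3a1, Pdgfra, Lum and Tcf21 were also fully separate and higher in SHR. Col1a1, Col1a2, Pi16, Dpp4, Postn and Fbln1 overlapped between the strains. The list of mesothelial or epithelial markers had 11 found and 7 tested, with 0 called by edgeR. Its summed level was 454, 679 and 1480 CPM in SHR and 680, 342 and 174 CPM in WKY. DESeq2 called Krt7 (adjusted p = 3.52e-08) and Cdh1 (0.0481) higher in SHR. Krt7 had 57.2, 127 and 103 CPM in SHR and 0.40, 2.85 and 0.37 CPM in WKY. Msln, Upk3b, Upk1b, Krt8, Krt18 and Wt1 overlapped between the strains. The part of either cell type in the levels of Wnt2b, Sfrp2 and Frzb was not tested.

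Of the target genes, Axin2 had 2.57, 3.42 and 6.50 CPM in SHR and 2.83, 1.80 and 4.60 CPM in WKY, a log2 fold change of 0.41 (SE 0.31 and adjusted p = 0.614). Lef1, a factor that carries beta-catenin to DNA, had 0.73, 0.76 and 0.83 CPM in SHR and 1.67, 0.63 and 0.31 CPM in WKY (log2 fold change -0.03, SE 0.67). Both overlapped between the strains, and Lef1 rested on 5 to 33 counts per library.

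**Figure D3:**
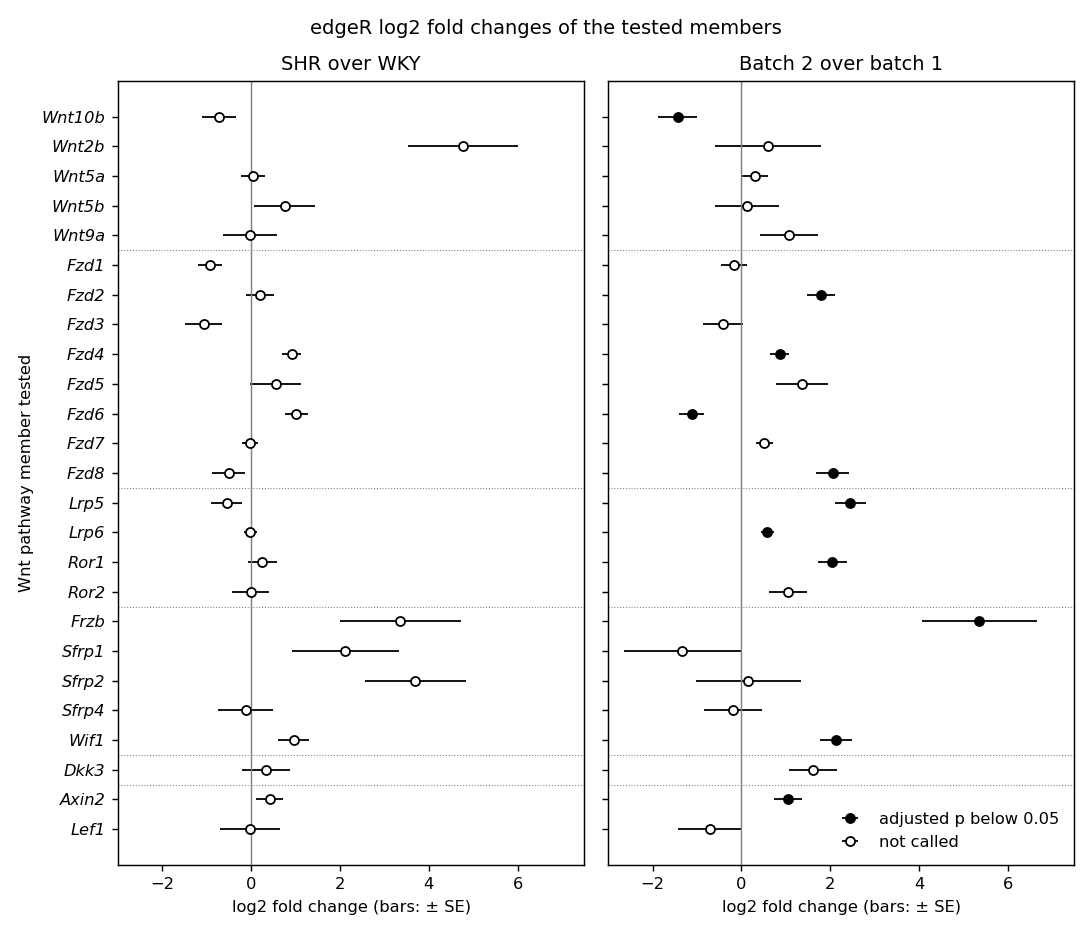
Log2 fold changes of the 25 tested members by edgeR with their standard errors, SHR over WKY on the left and batch 2 over batch 1 on the right, on the same axis. Filled points have an adjusted p below 0.05 over all genes tested. No point is filled on the left and 11 are filled on the right, 9 of them above 0.

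The batches were compared in the same fit, since both strains are in both. Of the 25 members 11 were called, 9 higher and 2 lower in batch 2, a share of 44%, and 43.5% of all genes tested were called. The 36% called higher stood beside 21% of all genes, and the 8% called lower beside 22.5%. By role, 3 of 4 co-receptors, 3 of 8 Frizzled receptors, 2 of 5 secreted antagonists and 1 of 2 targets rose in batch 2, and Fzd6 and Wnt10b fell. The median log2 fold change was 0.60 over the members and 0.00 over all genes tested. DESeq2 called 16 of the 30 members it tested, or 53.3% against 48% of genes, 14 higher and 2 lower (24.3% and 23.6% of genes). By edgeR, 13 of the 25 had an unadjusted p under 0.05, 11 higher and 2 lower (53% of genes, 26.1% higher and 27% lower). The batches did not overlap in 12 members, 11 higher and 1 lower (57.6% of genes, 27.2% higher and 30.4% lower). Dkk2 (adjusted p = 0.0042) and Fzd9 (0.0276), too low for the edgeR filter, were among those called by DESeq2, with their counts standing mostly in SHR replicate 3. Batch 2 held 1 library per strain, and the count of members called was 5 to 12 when 1 library was left out.

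Lrp5 had the smallest p of the members. It had 215 and 417 CPM in SHR and WKY of batch 2, against 50.7 and 47.1 CPM in SHR and 87.3 and 37.2 CPM in WKY of batch 1, a log2 fold change of 2.45 (SE 0.35 and adjusted p = 0.00449 by edgeR). Both batch 2 libraries lay above all 4 of batch 1. Ror1 had 18.7 and 19.5 CPM in SHR and WKY of batch 2 and 2.63 to 6.14 CPM in batch 1 (log2 fold change 2.05, SE 0.33, adjusted p = 0.00592). Fzd2 had 128 and 198 CPM in batch 2 and 31.3 to 64.5 CPM in batch 1 (1.80, SE 0.32, adjusted p = 0.00861). Lrp5, Ror1 and Fzd2 were the 3 of 11 called members that kept an adjusted p below 0.05 under all 10 alternatives run.

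Frzb had the largest fitted change, 5.36 on the log2 scale (SE 1.30 and adjusted p = 0.0247), with 50.1 and 23.9 CPM in SHR and WKY of batch 2 and 0 to 8.35 CPM in batch 1. With 1 library left out the log2 fold change lay between 3.35 (without WKY replicate 3) and 8.68 (without SHR replicate 3). Its adjusted p was 0.0646 when SHR replicate 2 was left out, and 0.0662, 0.0588 and 0.0871 when WKY replicates 1, 2 and 3 were left out in turn. Wif1 rose by 2.13 (SE 0.35, adjusted p = 0.00658) and was not called without SHR replicate 3 (0.0561). Fzd8, with 8.52 and 19.0 CPM in batch 2 and 2.22 to 4.39 CPM in batch 1, rose by 2.05 (SE 0.37, adjusted p = 0.00829) and was not called without WKY replicate 3 (0.0758).

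The other called members moved less. Axin2 had 6.50 and 4.60 CPM in batch 2 and 1.80 to 3.42 CPM in batch 1, a log2 fold change of 1.05 (SE 0.32 and adjusted p = 0.0414). Fzd4 rose by 0.86 (SE 0.21, adjusted p = 0.0221), and Lrp6 rose by 0.59 (SE 0.15, adjusted p = 0.0232). Fzd6 fell by 1.12 (SE 0.28, adjusted p = 0.0236), and Wnt10b fell by 1.43 (SE 0.44, adjusted p = 0.0432). Without SHR replicate 1, SHR replicate 2 or SHR replicate 3, each of these 5 members lost its call (adjusted p from 0.0537 to 0.202). The same held without WKY replicate 2 for Axin2 (0.0936), Lrp6 (0.0622) and Wnt10b (0.107), and without WKY replicate 3 for Axin2 (0.132), Fzd6 (0.093) and Wnt10b (0.0654).

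Smooth muscle markers moved with the same contrast. Of 9 tested markers 7 were called higher in batch 2 by edgeR, where 21% of all genes were. Myh11, with the largest fold change of these, had 49.2 and 345 CPM in SHR and WKY of batch 2. In batch 1 it had 2.57 to 6.40 CPM. Tagln and Des were not called by edgeR, and each moved in opposite directions in the strains. In SHR Tagln had 480 CPM in batch 2 and 578 and 545 CPM in batch 1. In WKY it had 3043 CPM in batch 2 and 517 and 498 CPM in batch 1. In SHR Des had 87.7 CPM in batch 2 and 2.47 and 1.68 CPM in batch 1. In WKY Des had 3.11 CPM in batch 2 and 21.8 and 19.9 CPM in batch 1. DESeq2 called Tagln higher in batch 2 (adjusted p = 0.0282) and did not call Des (0.069). Of the 12 fibroblast markers 5 were called higher in batch 2. The same held for 0 of 6 tested endothelial, 1 of 7 mesothelial or epithelial and 1 of 5 pericyte markers. The part of these cell states in the levels of Lrp5, Ror1, Fzd2 and the other members was not tested, and whatever the batches differed in cannot be told apart from them here. SHR replicate 3 held the highest level of 12 of the 25 members and WKY replicate 3 that of 7, or 48% and 28%, against 23.6% and 24.6% of all genes tested. The highest level stood in SHR replicate 1 for 3 members (10% of genes), SHR replicate 2 for 0 (15.7%), WKY replicate 1 for 2 (17.5%) and WKY replicate 2 for 1 (8.63%).

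Whether the strain difference itself varied between the batches was tested as an interaction, with 2 residual degrees of freedom that come from batch 1. By edgeR 0 of the 25 members were called, and 0% of all genes. With unadjusted p under 0.05 there were 4 members (16% against 12.7% of genes), namely Sfrp2, Fzd1, Fzd2 and Sfrp4. For Sfrp2 the SHR to WKY difference was larger in batch 2 by 5.98 on the log2 scale (SE 1.07, unadjusted p = 0.00249, adjusted p = 0.194). The interaction was -1.20 for Fzd1 (SE 0.28, unadjusted p = 0.00802, adjusted p = 0.247) and -2.33 for Sfrp4 (SE 0.77, unadjusted p = 0.034, adjusted p = 0.357). In 14 of the 25 members the strain ratio of log2(CPM + 0.5) lay on the same side of 0 in both batches, 9 above it and 5 below. By ratios of mean CPM it was 15 of 25. The same share over all genes tested was not computed, so these counts only describe the members.

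**Figure D4:**
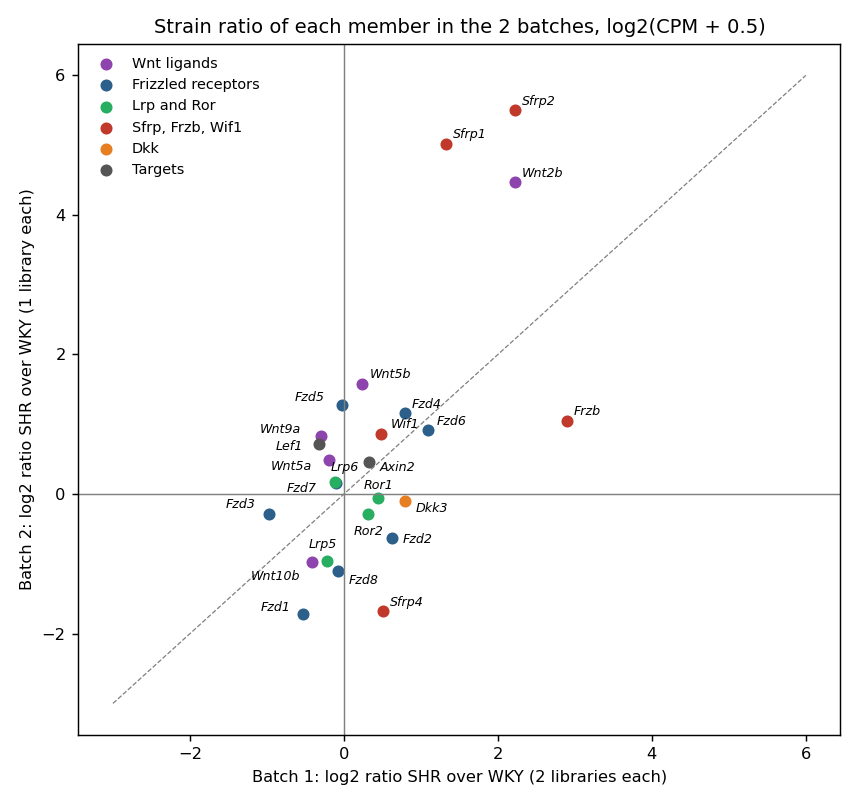
Log2 ratio of SHR over WKY for each tested member, in batch 1 (horizontal axis, mean of 2 libraries each) and in batch 2 (vertical axis, 1 library each), on log2(CPM + 0.5), with colour by role. The dashed line marks equal ratios, and ratios against levels near 0 depend on the added 0.5. Sfrp2, Sfrp1, Wnt2b and Frzb lie apart in the upper right, and 11 members lie in the quadrants where the batches differ in sign. The share of all genes in those quadrants was not computed.

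Other genes of the pathway were read from 4 lists, of which the list of reported targets also holds Axin2 and Lef1. That list shares Apcdd1, Bambi, Lgr5, Znrf3, Rnf43 and Notum with the list of secretion and surface genes. It shares Nkd1 and Tcf7 with the list of the beta-catenin cascade, so the lists are not separate sets. Among 21 tested genes of Wnt secretion and the cell surface, edgeR called 0 between the strains. With unadjusted p under 0.05, 4 were higher and 1 was lower in SHR (19% and 4.76%, against 6.1% and 7.18% of all genes). By DESeq2, 3 were called higher and 1 lower, where 2.77% and 2.56% of all genes were. The median log2 fold change was -0.01. Gpc4, a heparan sulphate proteoglycan, had 20.4, 20.3 and 68.8 CPM in SHR and 42.2, 47.6 and 342 CPM in WKY (log2 fold change -1.54, SE 0.27, adjusted p = 0.13). In each batch SHR was the lower strain. Kremen1, a Dkk receptor, had 23.5 ± 1.66 CPM in SHR and 15.3 ± 2.67 CPM in WKY (SD, n = 3 each), with no overlap and a log2 fold change of 0.62 (SE 0.15, Benjamini-Hochberg adjusted p = 0.228). Igfbp4, reported to bind Wnt receptors besides its growth factor, had a log2 fold change of 1.98 (SE 0.53 and adjusted p = 0.257), and the Wnt inhibitor Apcdd1 one of 2.46 (SE 0.77, adjusted p = 0.292). These values are by edgeR. DESeq2 called Gpc4 lower (adjusted p = 5.64e-05) and Kremen1 (0.0323) and Igfbp4 (0.00264) higher, and did not call Apcdd1 (0.0536).

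In the beta-catenin cascade 39 genes were tested, and edgeR called 0 between the strains, with a median of -0.11. Unadjusted p was under 0.05 for 0 higher genes and 1 lower gene, or 2.56% lower, against 6.1% of all genes higher and 7.18% lower. That gene was Nkd2, a feedback inhibitor that binds Dishevelled, with 7.61, 7.90 and 3.64 CPM in SHR and 14.99, 42.1 and 18.4 CPM in WKY (log2 fold change -2.03, SE 0.41, adjusted p = 0.181 by edgeR and 0.000563 by DESeq2). Bcl9 (-0.30, SE 0.14), Dvl2 (0.27, SE 0.13) and Apc (-0.31, SE 0.15), a co-activator, a Dishevelled and a destruction complex scaffold, followed in p. Ctnnb1, the beta-catenin gene, had 392.8 ± 87.4 CPM in SHR and 391.8 ± 21.8 CPM in WKY (SD, n = 3 each), a log2 fold change of -0.02 (SE 0.17).

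The list of the planar polarity and calcium branch held 23 tested genes, of which edgeR called 0, while 6 were lower in SHR with unadjusted p under 0.05 and 0 higher (26.1% lower, against 7.18% of all genes, and 6.1% of all genes higher). By DESeq2, 2 were called lower, where 2.56% of all genes were. Its median was -0.10. Daam2, a formin, had a log2 fold change of -0.56 (SE 0.14 and adjusted p = 0.226). Plcb4, a phospholipase, stood at -0.66 (SE 0.18) and Camk2b, a calcium-dependent kinase, at -1.70 (SE 0.56). Of 23 tested genes reported as beta-catenin targets edgeR called 0, and with unadjusted p under 0.05 there were 3 higher and 3 lower (13% each, against 6.1% and 7.18% of all genes). By DESeq2 1 was called, higher in SHR, where 2.77% of all genes were, and the median was -0.14. The mitotic gene Birc5 (0.72, SE 0.14) and Apcdd1 were higher, and the transcription factor Sox9 (-1.07, SE 0.32) and Ccnd1 lower at that unadjusted p. Ccnd1, which encodes cyclin D1, had 908, 1293 and 330 CPM in SHR and 1606, 1856 and 1867 CPM in WKY (-1.25, SE 0.44, adjusted p = 0.342 by edgeR), without overlap.

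Between the batches more genes of these lists were called by edgeR than between the strains. Of all genes, 21% were called higher and 22.5% lower in batch 2, and of the surface list 14.3% higher. In the beta-catenin cascade 22 of 39 tested genes rose and 2 fell in batch 2, with a median log2 fold change of 0.67. The planar polarity and calcium list had 10 of 23 higher and 0 lower (median 0.79), the secretion and surface list 3 of 21 and 0 (0.94), and the target list 6 of 23 and 2 (1.03). DESeq2 called 23 genes higher and 2 lower in the cascade, and 13 and 1 in the planar polarity and calcium list. It called 5 higher and 1 lower in the surface list and 8 and 3 in the target list. Of all genes it called 24.3% higher and 23.6% lower. Tcf7l1, a TCF factor chosen after its value was seen, rose by 3.33 on the log2 scale (SE 0.33 and adjusted p = 0.00204).

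**Figure D5:**
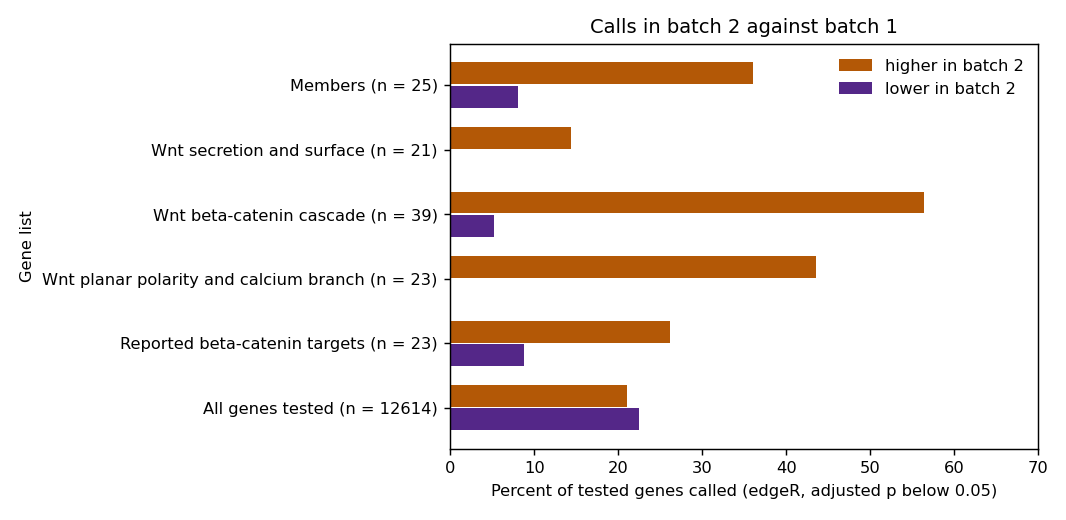
Percent of tested genes called by edgeR in batch 2 against batch 1 for the members, the 4 other pathway lists and all genes tested, with bars for higher and lower calls and n in each label. Higher calls range from 14.3% in the secretion and surface list to 56.4% in the beta-catenin cascade, against 21% of all genes, and lower calls stay at or below 8.7% in all 5 lists, against 22.5%.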

How the data were processed

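Per the file headers, the deposited table holds 1 estimated count per gene and library, and its totals differ between libraries. Of these, 10.3% of those above 0 were not whole (tolerance 0.001). The submitters' processing notes name RSEM 1.2.28, Bowtie2 2.4.4, the build Rnor_6.0 and DESeq2 1.42.1, without roles; strand and the handling of similar genes are not given in the sources used here. A second deposited table of log2 values, in which the batch means are equal, was not used. Counts were rounded and genes were kept by filterByExpr of edgeR 4.0.16 (at least 0.539 CPM in 3 libraries and 15 counts in all), which left 12614. Levels are CPM with TMM factors (0.873 to 1.07). Strain and batch were tested with glmQLFit (robust) and glmQLFTest, in an additive model of both (3 residual degrees of freedom), in R 4.3.3. The p-values were two-sided and adjusted by Benjamini-Hochberg over all genes, and a gene was called below 0.05. DESeq2 1.42.0 was the alternative tool. SEs come from the fold change and F. The code was tested on simulated data.

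The members and lists were chosen with earlier results of these data known. Values by library (for some batch results by range) were given for members called by either tool between strains, the 12 smallest strain p, the 10 largest called batch changes, and the 2 highest of each class; Lrp6 and the remaining members were added so that every member is covered. From each other list the 4 smallest strain p and Ctnnb1 were named. The result of 1 gene of the planar polarity and calcium list is not reported here. The main fits had terms for batch and strain, and replicate numbers were taken as pairing the strains only in the replicate block, an alternative. Number 3 is batch 2 in both strains. Deviations from strain means correlated at 0.344, 0.444 and 0.685 for numbers 1, 2 and 3. Within batch 1 the difference between replicates 1 and 2 correlated at -0.22 between strains, so numbers 1 and 2 showed no positive pairing there. What a replicate number shared is not said. Counting intervals and floors cover counting error only. Alternatives were another scaling, no filter, DESeq2, other terms, the replicate block and leaving out libraries.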

Additional observations from a re-analysis of the deposited data

Results flagged for a closer look

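Fzd2 stood out because its strain difference had opposite signs in the batches, with no overlap in batch 1. In batch 1 it had 64.5 and 52.5 CPM in SHR, above 31.3 and 45.4 CPM in WKY, and in batch 2 it had 128 CPM in SHR, below 198 CPM in WKY. The edgeR interaction was -1.24 on the log2 scale (SE 0.40, unadjusted p = 0.027, adjusted p = 0.34), so it did not pass the adjustment over all genes, and batch 2 holds 1 library per strain.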

How the results depend on the processing

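Between the strains 0 members were called in 11 of the 12 edgeR and DESeq2 alternatives, and 4 by the DESeq2 Wald test. In DESeq2 refits chosen after seeing the data, 2 to 6 members were called when 1 library was left out and 4 with the replicate block. By either tool, leaving out SHR replicate 3 or WKY replicate 3 gives the strain difference of batch 1 alone. Those refits are therefore not separate checks of a member. The replicate block changed no member's call by edgeR. Over all genes, edgeR called 32 between strains, 6 with the replicate block, 0 to 65 with 1 library left out and DESeq2 730. Between the batches 6 members were called without the strain term and 5 to 12 with 1 library left out. Signs turned in members with strain differences near 0. For Ror2 the log2 fold change was 0.10 with the replicate block, 0.0033 with DESeq2 size factors, 0.0016 by DESeq2 and 0.12 in batch 1 only. It was -0.16 for Fzd2 without the batch term, and in batch 1 only 0.61 for Sfrp4 and -0.19 for Wnt5a. With 1 library left out, the ranges were -0.11 to 0.94 for Dkk3, -0.078 to 0.61 for Fzd2, -0.39 to 0.49 for Ror2, -0.73 to 0.61 for Sfrp4 and -0.18 to 0.30 for Wnt5a. None of these 5 passed an adjusted p of 0.05 under any of the 12 alternatives. The filter on low counts kept 10 members out of the edgeR test, and 34 were tested without it and 30 by DESeq2. Batch 2 has 1 library per strain, so its spread was not measured.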
